A study of Rattus norvegicus with 6 samples.

Results

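The genes described are 10 rat genes of glutathione synthesis, reduction and turnover: Gclc, Gclm, Gss, Slc7a11, Gsr, Gpx1, Gpx3, Gpx4, Ggt1 and Dpep1. They were picked by name for their place in the pathway, with earlier results of these animals known, and every non-control probe whose RefSeq accession maps to one of them was taken, which gave 16 probes. 13 of these probes, for 9 genes, were bright enough to test, out of 11913 named genes and 30709 features tested in all. Renal cortex RNA, 1 animal per single-colour Agilent array, came from 6 male Sprague-Dawley (Crl:CD(SD)) rats purchased at 5 weeks of age. One group of 3 rats was dosed with o-anthranilic acid, 1000 mg per kg and day, and the other 3 with corn oil, the vehicle, each over 4 weeks. The labels name a basal diet for all animals and no genetic change, and the design is a single dose and a single time point.

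Glutathione is the tripeptide of glutamate, cysteine and glycine that serves as the main soluble thiol of animal cells. The proximal tubule of the kidney makes it inside the cell and also breaks it down at the brush border, so that the amino acids of filtered glutathione can be taken up again. Glutamate-cysteine ligase, built from a catalytic subunit (Gclc) and a modifier subunit (Gclm), makes the first peptide bond, and glutathione synthetase (Gss) adds glycine. Slc7a11 is the cystine and glutamate exchanger that brings in cystine. Glutathione peroxidases use glutathione to reduce peroxides, and glutathione reductase (Gsr) restores it from its disulfide with NADPH. Gamma-glutamyltransferase (Ggt1) cleaves glutathione outside the cell, and membrane dipeptidase (Dpep1) splits the cysteinylglycine that is left.

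The ligase subunits are classical targets of Nrf2, a transcription factor that binds antioxidant response elements. The promoters of both are shown because the largest difference among the 9 tested genes, in the comparison reported, was that of Gclm. They are the 250 bases before the annotated start in the RefSeq table, build GRCr8, and capitals mark a match to TGACNNNGC, the core of the antioxidant response element, searched on both strands. Gclm lies at chr2:213031885-213032134 and Gclc at chr8:87510226-87510475, both on the + strand.
Gclm promoter: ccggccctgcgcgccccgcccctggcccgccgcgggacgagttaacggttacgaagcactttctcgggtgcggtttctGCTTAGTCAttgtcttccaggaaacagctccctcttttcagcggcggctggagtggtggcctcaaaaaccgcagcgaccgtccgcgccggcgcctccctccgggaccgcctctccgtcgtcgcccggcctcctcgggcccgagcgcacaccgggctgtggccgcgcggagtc
Gclc promoter: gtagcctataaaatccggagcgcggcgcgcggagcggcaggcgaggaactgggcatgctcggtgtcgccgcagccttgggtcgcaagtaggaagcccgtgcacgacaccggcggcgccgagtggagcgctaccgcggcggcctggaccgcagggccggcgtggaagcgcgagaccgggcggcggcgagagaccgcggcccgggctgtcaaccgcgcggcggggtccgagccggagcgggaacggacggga
The match in the Gclm promoter lies on the - strand and begins 172 bases upstream of the start. The table held 11 promoters for 9 of the 10 genes, 3 of them for Gpx4, and that of Gclm was the 1 with a match in the window of 250 bases before to 50 after the start. Over the whole table, 4038 of 33469 windows held a match (12.1%). Sequence outside these windows was not searched, so the lack of a match for Gclc and the others holds for the windows alone. A match is a string of letters and not a measured site, and the arrays measured no binding.

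Values are log2 of the background-subtracted signal minus the log2 of the 75th percentile of the same array, so 0 is the brightness of that percentile and 1 unit is a doubling of signal. The value is relative within one probe. Brightness was compared between probes only to choose or order the probes of a gene, and it was added over probes in the marker sums. Between 63.7% and 68.3% of probes were well above background on the o-anthranilic acid arrays and between 66.0% and 69.3% on the vehicle arrays. All 6 markers of the convoluted and all 7 of the straight proximal tubule were above the filter, as were all 5 podocyte markers. Markers of erythrocytes (4 of 4 tested, 0 called) summed to between 614 and 755 times the 75th percentile in treated animals and between 481 and 634 in vehicle animals, and those of the medulla (4 of 4 tested, 0 called) to between 6.36 and 7.84 in treated and between 6.70 and 8.23 in vehicle animals. Their part in the values of the glutathione genes was not tested. No feature passed limma's test after Benjamini-Hochberg adjustment at 0.05 (0 of 30709, the smallest adjusted p being 0.0813), while 2548 had an unadjusted p under 0.05. The labels call the animals of a group biological replicates. The p-values set each group difference against the spread between these animals, moderated by limma over all features.

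None of the 9 tested genes passed the threshold, beside 0% of all features, and the smallest adjusted p among them was 0.471. Of the 9, 7 had a mean above the vehicle mean and 2 below it, and their median log2 fold change was 0.30, beside -0.0065 over all features. An unadjusted p under 0.05 was found for 2 genes with higher signal, Gclm and Dpep1, beside 3.46% of all features, and for 1 with lower signal, Gpx3, beside 4.84%. The 3 treated animals all lay above the 3 vehicle animals for 1 gene, Dpep1, as for 6.39% of features, and all lay below them for 1 gene, Gpx3, as for 8.31%. Counts this small over genes chosen by name are a description of these animals.

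**Figure D1:**
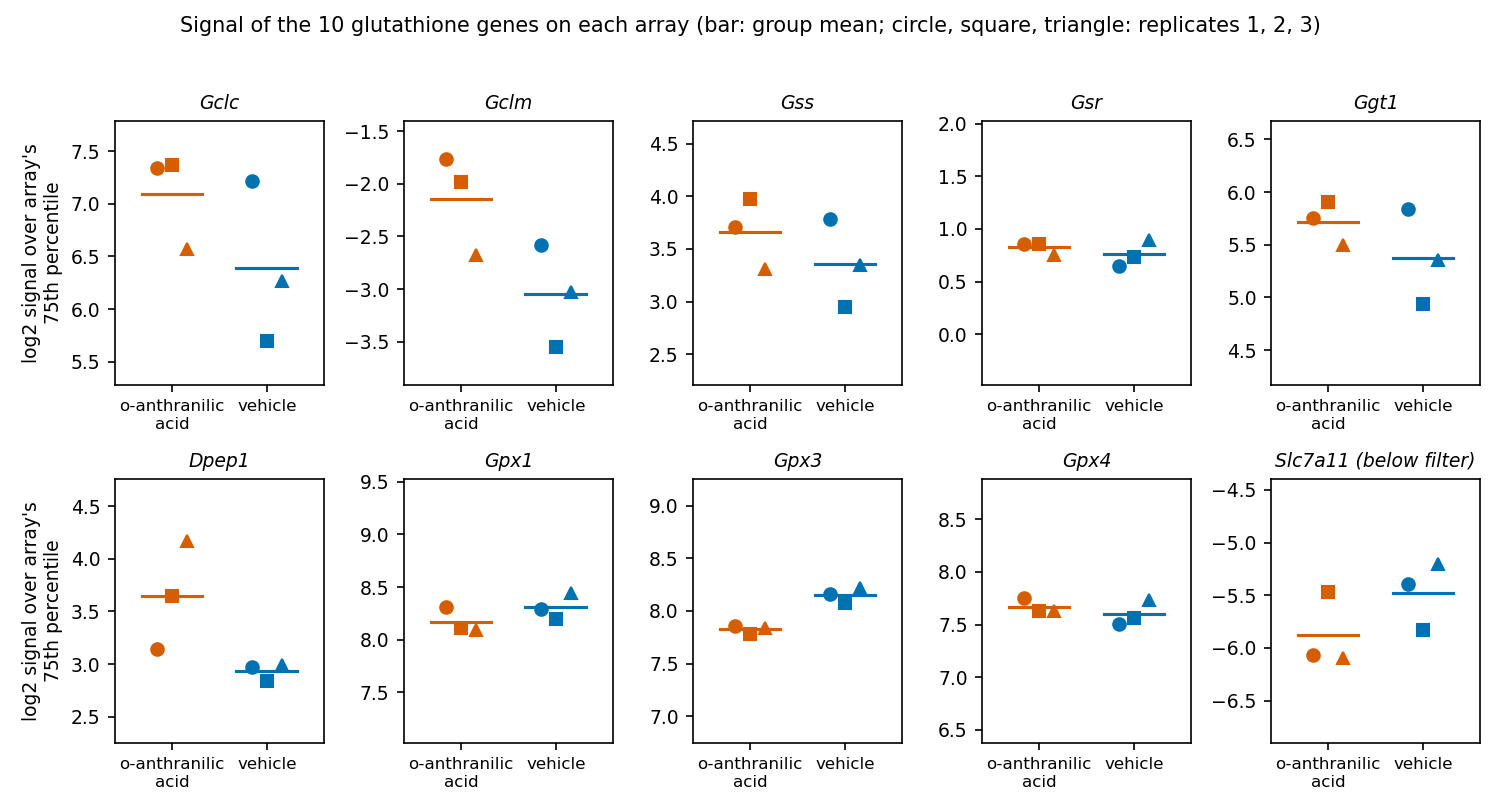
Each panel plots one gene, with log2 signal over the array's 75th percentile on the vertical axis and the o-anthranilic acid group left of the vehicle group; symbols are animals and bars are group means, and every panel spans the same log2 distance. The groups are apart for Dpep1 and Gpx3 and overlap for the other 8 genes, and Slc7a11 is shown by a probe below the filter.

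The ligase subunits had the widest differences on the synthesis side, and their animals differed widely within groups too. Gclc had log2 signals of 7.34, 7.36 and 6.57 in the o-anthranilic acid animals, against 7.22, 5.70 and 6.27 in the vehicle animals. Vehicle replicate 1 was as high as the treated animals and treated replicate 3 lay near vehicle replicate 3, so the groups overlapped. The means were 7.09 ± 0.45 in the treated group and 6.39 ± 0.77 in the vehicle group (SD, n = 3 each). The log2 fold change was 0.70 ± 0.42 (SE), or 1.62-fold, with a 95% interval between -0.32 and 1.72 and an adjusted p of 0.693 by limma. A second Gclc probe read 3.02, 3.08 and 2.05 in treated animals, against 2.99, 1.20 and 1.83 in vehicle animals. Its order of animals was the same at both ends, and its log2 fold change was 0.71 ± 0.51 (adjusted p = 0.723 by limma over all kept probes).

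Gclm, the subunit that raises the ligase's affinity for glutamate, had log2 signals of -1.77, -1.98 and -2.68 in treated animals, against -2.58, -3.55 and -3.03 in vehicle animals. Treated replicates 1 and 2 lay above every vehicle animal, while treated replicate 3 lay just below vehicle replicate 1. The group means were -2.14 ± 0.48 with o-anthranilic acid and -3.05 ± 0.49 with vehicle (SD, n = 3 each). This gave the largest difference of the 9 genes, 0.91 ± 0.32 on the log2 scale, or 1.87-fold, with a 95% interval between 0.12 and 1.69. Its unadjusted p was 0.0302 and its adjusted p was 0.549 in limma's fit over all features. The rank depended on the processing. With normexp background correction Gclm was at 0.63, below Gclc at 0.70 and Dpep1 at 0.66. Dpep1 was also larger without treated replicate 1 (0.97 against 0.72) and without vehicle replicate 2 (0.67 against 0.66). In size the Gclm difference exceeded that of 98.7% of features and the Gclc difference that of 97.5%.

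Gss, which completes the tripeptide, had log2 signals of 3.71, 3.97 and 3.31 in treated animals, against 3.78, 2.95 and 3.34 in vehicle animals. Only vehicle replicate 2 stood below all treated animals. The groups differed by 0.30 ± 0.26 on the log2 scale, or 1.23-fold, with a 95% interval between -0.32 and 0.92 and an adjusted p of 0.779 by limma.

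For Slc7a11 none of the 3 probes reached the filter, so the gene was not tested. Its brightest probe read -6.07, -5.47 and -6.10 in treated animals, where no array had it well above background, against -5.40, -5.83 and -5.20 in vehicle animals, where it was well above background on 2 of 3. For each treated array the higher of this probe's value and the array's lowest signal well above background was taken. The mean of these, -5.37, lay above the vehicle mean of the probe, -5.48, so no fold is given. The other 2 probes were well above background on no array. They ranged between -7.98 and -7.17 in treated animals and between -8.21 and -7.44 in vehicle animals.

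For Gsr and the peroxidases the animals of a group lay closer together than for the ligase subunits. Gsr had log2 signals of 0.86, 0.86 and 0.75 in treated animals, against 0.64, 0.74 and 0.90 in vehicle animals. The treated animals lay within the range of the vehicle animals. This left a log2 fold change of 0.06 ± 0.09 with a 95% interval between -0.16 and 0.29 (adjusted p = 0.878 by limma).

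Gpx3, the plasma glutathione peroxidase that the proximal tubule makes and secretes, had the smallest p of the 9 genes. Its log2 signals were 7.86, 7.78 and 7.84 in treated animals, against 8.16, 8.08 and 8.22 in vehicle animals. Every treated animal lay below every vehicle animal, and both groups were tight. The means were 7.82 ± 0.04 with o-anthranilic acid and 8.15 ± 0.07 with vehicle (SD, n = 3 each). Their difference was -0.33 ± 0.07 on the log2 scale, 1.26-fold lower with treatment. The 95% interval was between -0.51 and -0.15, the unadjusted p 0.00422 and the adjusted p 0.471 by limma, so it did not pass. In size the difference exceeded 87.9% of features, and its range over animals was smaller than that of most features, at the 11.6th percentile in the treated group and the 21.6th in the vehicle group.

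Gpx1, the cytosolic peroxidase found in most cells, had log2 signals of 8.31, 8.11 and 8.10 in treated animals, against 8.29, 8.19 and 8.45 in vehicle animals. Treated replicate 1 lay among the vehicle animals and the other two lay just below them. The log2 fold change was -0.14 ± 0.10 (adjusted p = 0.749 by limma), and the second probe gave -0.14 ± 0.11 with the same overlap.

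Gpx4, the peroxidase that reduces lipid hydroperoxides in membranes, had 3 tested probes. The probe with the highest signal read 7.75, 7.63 and 7.62 in treated animals, against 7.50, 7.56 and 7.73 in vehicle animals. The groups overlapped, and the log2 fold change was 0.07 ± 0.09 with a 95% interval between -0.15 and 0.29 (adjusted p = 0.856 by limma). The other 2 probes gave 0.13 ± 0.08 and 0.25 ± 0.12, the second of them designed to another Gpx4 transcript accession, with adjusted p of 0.701 and 0.626. On all 3 the groups overlapped.

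**Figure D2:**
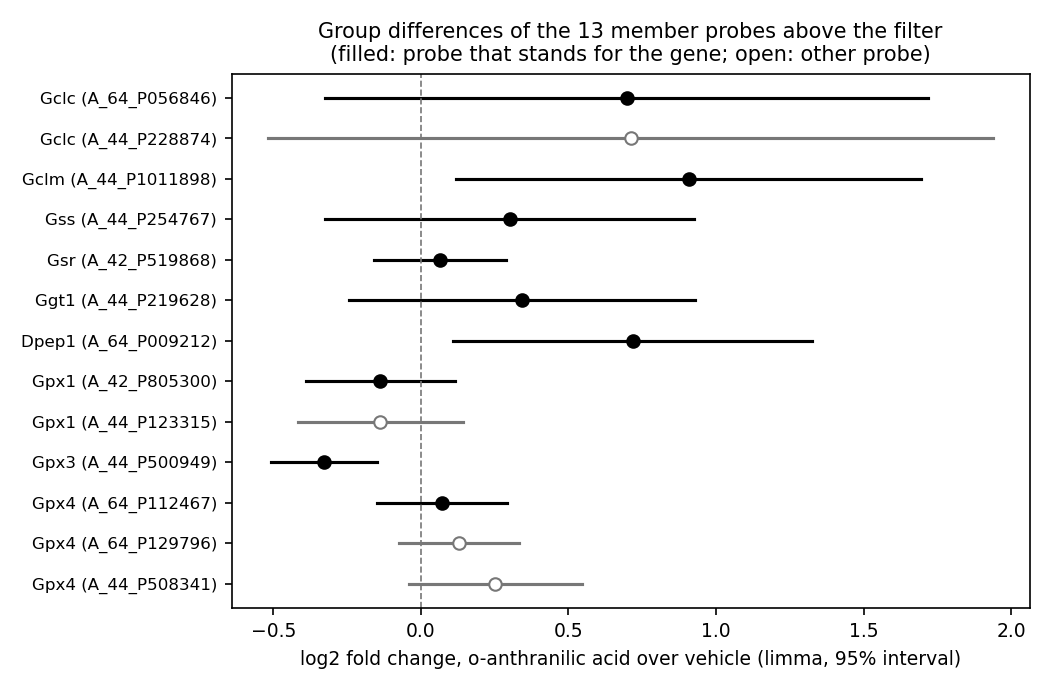
Points are limma log2 fold changes of o-anthranilic acid over vehicle and lines are 95% intervals for the 13 probes above the filter, with filled points for the probe that stands for each gene. The intervals of Gclm, Dpep1 and Gpx3 lie off 0, those of the other genes cross it, and probes of one gene gave the same sign.

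The breakdown enzymes of the brush border differed from each other in their pattern over animals. Ggt1 had log2 signals of 5.75, 5.91 and 5.49 in treated animals, against 5.84, 4.93 and 5.36 in vehicle animals. As for Gss, vehicle replicate 2 was the low animal and vehicle replicate 1 lay among the treated animals. Ggt1 differed by 0.34 ± 0.24 on the log2 scale, or 1.27-fold, with a 95% interval between -0.24 and 0.93 and an adjusted p of 0.731 by limma.

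Dpep1, which splits the cysteinylglycine left by Ggt1, had log2 signals of 3.14, 3.65 and 4.16 in treated animals, against 2.97, 2.84 and 2.99 in vehicle animals. All treated animals lay above all vehicle animals, treated replicate 1 by the smallest step and treated replicate 3 by the largest. The means were 3.65 ± 0.51 with o-anthranilic acid and 2.93 ± 0.08 with vehicle (SD, n = 3 each). The log2 fold change was 0.72 ± 0.25, or 1.64-fold, with a 95% interval between 0.11 and 1.32, an unadjusted p of 0.0275 and an adjusted p of 0.54 by limma. The treated animals spanned 1.02, wider than 94.5% of features in that group, and the vehicle animals 0.15, wider than 23.6%.

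Set against the mean of the vehicle animals, the 9 genes had unlike patterns over the 6 animals. Gclc, Gclm, Gss and Ggt1 were each lowest in vehicle replicate 2, at -0.69, -0.50, -0.41 and -0.44 from the vehicle mean on the log2 scale. In vehicle replicate 1 the same genes lay 0.82, 0.47, 0.42 and 0.46 above that mean. In treated replicates 1 and 2 they lay between 0.35 and 1.28 above it, and in treated replicate 3 between -0.05 and 0.37. Within the vehicle group the 4 genes spanned 1.52, 0.97, 0.83 and 0.90, where the median feature spanned 0.26.

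The 7 markers of the straight proximal tubule were, on average, also lowest in vehicle replicate 2. Their mean lay 0.54, 0.44 and 0.24 above the vehicle mean in treated replicates 1, 2 and 3, and 0.21, -0.28 and 0.08 from it in vehicle replicates 1, 2 and 3. None of the 7 was called, their median log2 fold change was 0.11, and their summed signal, in multiples of the 75th percentile, ranged between 605 and 721 in treated animals and between 558 and 611 in vehicle animals. The mean of the 6 convoluted segment markers lay between -0.08 and 0.04 from the vehicle mean in the 6 animals, with sums between 686 and 719 in treated and between 689 and 706 in vehicle animals. The dip was not particular to the straight segment. The mean of the 3 tested thick ascending limb markers was also lowest in vehicle replicate 2, at -0.21 from the vehicle mean. It lay at 0.06 and 0.15 in vehicle replicates 1 and 3, and at 0.05, -0.02 and -0.19 in treated replicates 1, 2 and 3. The part of the segment markers in the values of the 4 genes was not tested. In bulk tissue, fewer cells of a type and less RNA per cell cannot be told apart.

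**Figure D3:**
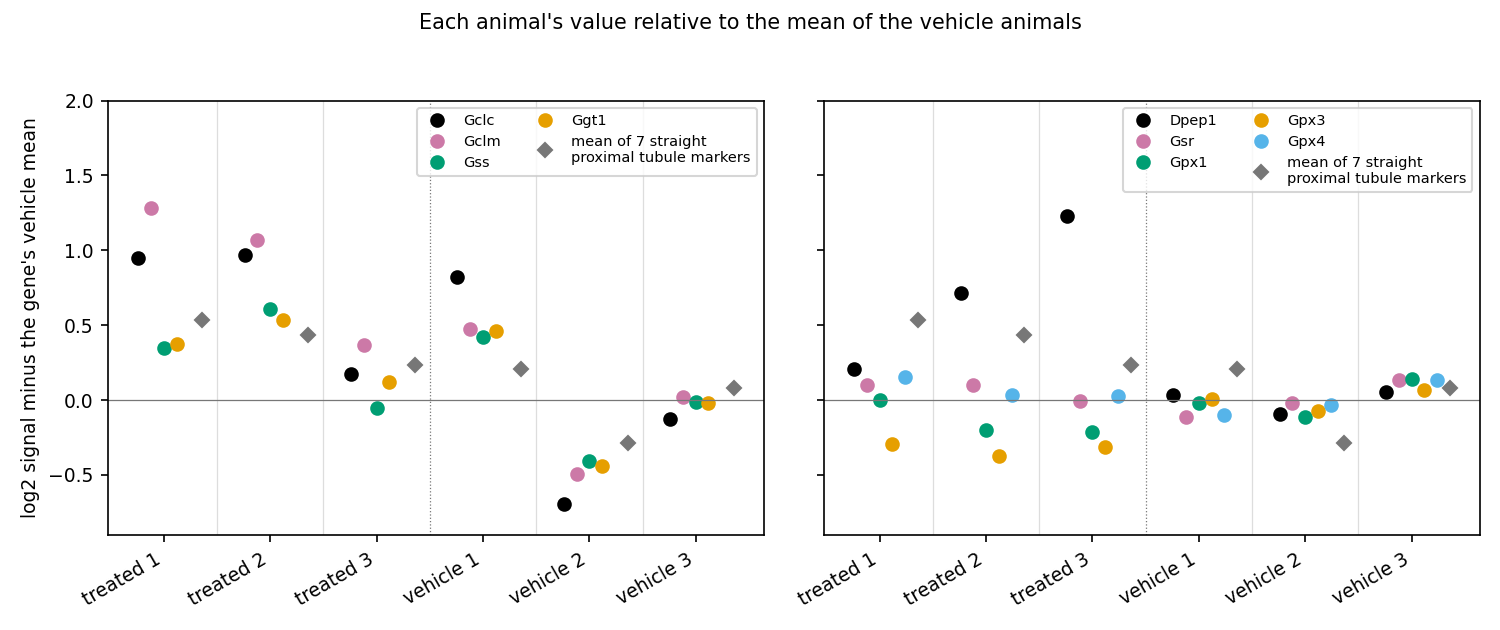
Points are each animal's log2 signal minus the vehicle mean of that gene, with the 3 treated animals left of the 3 vehicle animals, and grey diamonds are the mean of 7 straight proximal tubule markers. In the left panel Gclc, Gclm, Gss and Ggt1 are all lowest in vehicle replicate 2, and in the right panel Dpep1 is highest in treated replicate 3 while Gpx3 lies below 0 in all treated animals.

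Dpep1 had another order of animals. It lay 0.21, 0.71 and 1.23 above the vehicle mean in treated replicates 1, 2 and 3, so that the treated animal in which the other 4 genes were lowest was the one in which it was highest. Taking the root mean square difference of log2 values over the 6 arrays, after removing each gene's own mean, as the measure of likeness, the closest pairs among the 9 were Gsr with Gpx4 (0.039) and Gss with Ggt1 (0.078). Gclc and Gclm lay 0.22 apart and Gpx1 and Gpx3 0.12 apart. For Dpep1 the nearest of the others was Gsr at 0.47, the widest nearest distance of the 9. The measure rewards genes that vary little, and all values share the same 6 arrays.

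By the same measure over all named genes, the genes most like Gpx3 were Zfp133 (0.023), Isl2 (0.035), Ccl22 (0.038), Glyr1 (0.043) and Acaa1a (0.045). Their log2 fold changes were between -0.36 for Glyr1 and -0.26 for Acaa1a, a peroxisomal thiolase, and none passed the test. Their likeness to Gpx3 over the same 6 animals fixed the sign and the separation of the groups, which are a description with no test. Acaa1a was at -0.12 over the mean of its probes, and Zfp133 at -0.21 and Isl2 at -0.09 with normexp background correction. Isl2 was well above background on 1 of 3 treated and 3 of 3 vehicle arrays.

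Which array was left out decided the size of several differences. The difference of Gclc was 0.35 without vehicle replicate 2 and 1.11 without vehicle replicate 1. For Gss it was 0.10 and 0.51, and for Ggt1 0.12 and 0.57, without the same 2 animals. Without treated replicate 2, the only array on the second slide, Gss was at 0.15, and without treated replicate 3 it was at 0.48. Dpep1 was at 0.46 without treated replicate 3 and at 0.97 without treated replicate 1. Gclm stayed between 0.66 and 1.17, and Gpx3 between -0.36 and -0.29, over the 6 arrays left out in turn. Of the small differences, Gpx1 moved between -0.20 and -0.07, Gpx4 between 0.02 and 0.14, and Gsr between 0.0075 and 0.13. No sign turned among the 9 genes, and none passed the threshold in any of these fits.

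**Figure D4:**
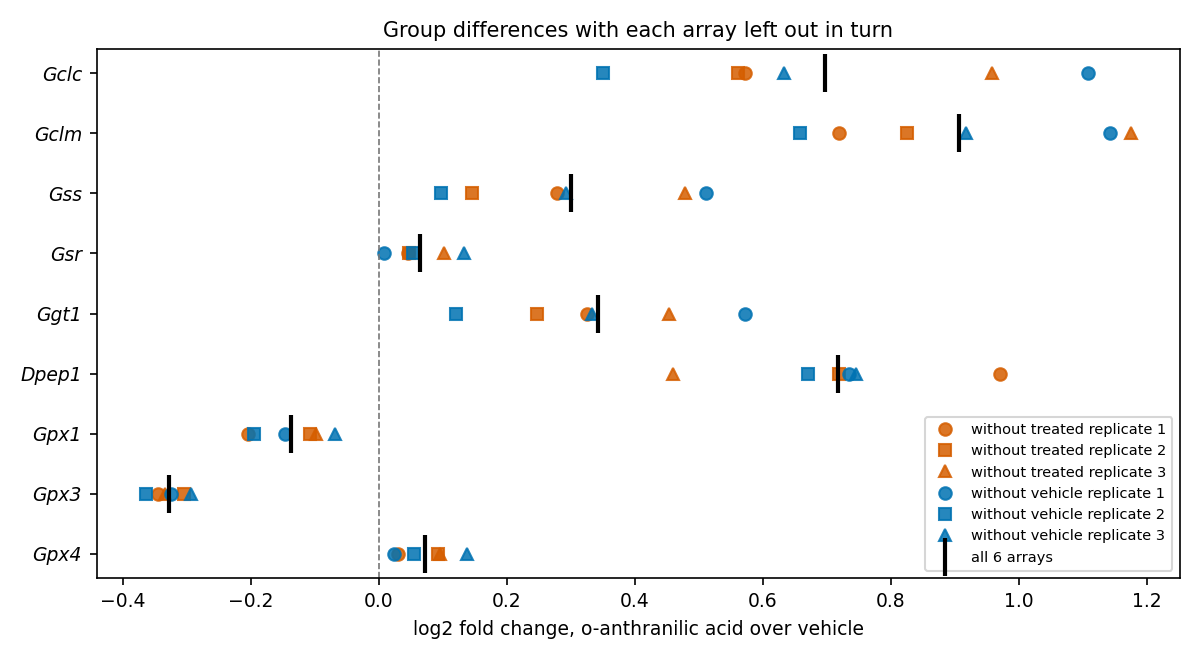
Each row is a gene and each point its log2 fold change of o-anthranilic acid over vehicle with 1 of the 6 arrays left out, with the black tick for all 6 arrays. Gclc spreads widest, between 0.35 and 1.11, Gpx3 stays near -0.33, and no point crosses 0.

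The related genes were read from 5 lists of 91 tested genes, none of which passed the threshold. These lists too were chosen with earlier results of these animals known, so their directions are no independent evidence. Of other glutathione enzymes, 22 of 26 were tested, 11 with a mean above vehicle and 11 below, and the median log2 fold change was 0.001. An unadjusted p under 0.05 was found for 0 higher, beside 3.46% of all features, and 2 lower, beside 4.84%. The smallest was that of Ggt6, a relative of Ggt1, at -5.31, -5.72 and -5.60 in treated animals, against -4.83, -4.59 and -4.45 in vehicle animals. Its log2 fold change was -0.92 ± 0.15 (adjusted p = 0.386 by limma), and it was well above background on 1 of 3 treated arrays. With normexp background correction the difference was -0.29. Gpx8, a peroxidase of the endoplasmic reticulum, gave -0.26 ± 0.10.

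Dpep2, another dipeptidase, read -4.15, -3.41 and -2.80 in treated animals, against -3.74, -4.51 and -4.88 in vehicle animals. As for Dpep1, treated replicate 3 was highest, but treated replicate 1 lay below vehicle replicate 1. Its log2 fold change was 0.93 ± 0.42 (adjusted p = 0.621 by limma), 0.48 with normexp background correction and 0.60 without treated replicate 3. Glrx3, a glutaredoxin, gave 0.15 ± 0.07. Chac1, which cleaves glutathione in the cytosol, gave -0.06 ± 0.10, and Anpep, a brush border aminopeptidase that also acts on cysteinylglycine, gave -0.05 ± 0.26. The signs of both turned with some arrays left out.

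For the supply of cysteine, glutamate and glycine, 19 of 21 genes were tested, 9 above and 10 below vehicle, with a median of -0.03. An unadjusted p under 0.05 by limma was found for 1 higher, beside 3.46% of all features, and 2 lower, beside 4.84%. The treated animals lay above all vehicle animals for 1 of the 19, as for 6.39% of features, and below them for 3, as for 8.31%. Slc1a1, the neuronal and renal transporter of glutamate and cysteine, had log2 signals of 3.39, 3.48 and 3.57 in treated animals, against 2.91, 3.18 and 3.23 in vehicle animals. All treated animals lay above all vehicle animals, with a difference of 0.37 ± 0.11 (adjusted p = 0.501 by limma). Psat1, an enzyme of serine synthesis, gave -0.26 ± 0.07, or -0.14 over the mean of its probes. Phgdh, which starts that synthesis, gave -0.24 ± 0.09. Shmt2, which makes glycine from serine, gave -0.17 ± 0.09, or -0.11 without treated replicate 2. For each of the 3 the treated animals lay below all vehicle animals, and none of the 3 passed the test. Slc3a2, the heavy chain that pairs with Slc7a11, gave -0.10 ± 0.09 (adjusted p = 0.785), between -0.15 and -0.04 over the alternatives.

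Thioredoxin and the peroxiredoxins are the other thiol system for peroxide removal, and their list also held superoxide dismutases and catalase. All 17 listed genes were tested, 8 above and 9 below vehicle with a median of -0.006. Of these, 0 had an unadjusted p under 0.05 by limma, beside 3.46% of all features higher and 4.84% lower. The treated animals lay above all vehicle animals for 3 of the 17, as for 6.39% of features, and below them for 0, as for 8.31%. Txnrd1, thioredoxin reductase, gave 0.14 ± 0.08 by its brightest probe and -0.13 over the mean of its probes. Txnrd3 gave -0.23 ± 0.13, or -0.14 without vehicle replicate 1. Prdx1 gave 0.20 ± 0.11, or 0.09 without vehicle replicate 3, and Sod1, the cytosolic superoxide dismutase, 0.13 ± 0.10, or 0.05 without vehicle replicate 2.

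Glutathione peroxidases 1, 3 and 4 carry selenocysteine, so the selenoproteins and the enzymes that make that residue were read beside them. Of 19 listed genes, 17 were tested, 8 above and 9 below vehicle, with a median of -0.02. An unadjusted p under 0.05 by limma was found for 1 higher, beside 3.46% of all features, and 1 lower, beside 4.84%. The treated animals lay above all vehicle animals for 2 of the 17, as for 6.39% of features, and below them for 1, as for 8.31%. Sephs2, which makes the selenium donor, had log2 signals of 4.45, 4.37 and 4.50 in treated animals, against 4.17, 4.17 and 4.18 in vehicle animals. Its difference was 0.27 ± 0.07 (adjusted p = 0.479 by limma). Selenop, the selenium transport protein, was at 7.34, 7.55 and 7.53 in treated animals, against 7.78, 7.85 and 7.67 in vehicle animals. Its difference was -0.29 ± 0.09 (adjusted p = 0.518), and neither gene's groups overlapped. Sephs1 gave 0.18 ± 0.10, or 0.11 without vehicle replicate 3. Sepsecs, an enzyme of selenocysteine synthesis, gave 0.17 ± 0.07, or 0.0072 over the mean of its probes.

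Among the Nrf2 regulators and reference targets, 16 of 17 were tested, 12 above and 4 below vehicle, with a median of 0.22. At an unadjusted p under 0.05, 6 had higher signal, beside 3.46% of all features, and 1 had lower signal, beside 4.84%. For 7 the treated animals lay above all vehicle animals, as for 6.39% of features, and for 1 below them, as for 8.31%. Nqo1, a quinone reductase, had log2 signals of -1.93, -1.16 and -0.97 in treated animals, against -2.35, -2.96 and -2.60 in vehicle animals, a difference of 1.28 ± 0.28, or 2.43-fold (adjusted p = 0.459 by limma).

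Its order of animals was not that of Gclm, with treated replicate 1 the lowest of the treated animals for Nqo1 and the highest for Gclm. The efflux pumps Abcc2 and Abcc4, which export glutathione and its conjugates, gave 0.74 ± 0.18 and 0.50 ± 0.13, and the small Maf protein Mafk gave -0.24 ± 0.07. Nfe2l2, the gene of Nrf2 itself, gave -0.13 ± 0.11 (adjusted p = 0.775), and -0.07 without treated replicate 2 and -0.23 without treated replicate 3. Its inhibitor Keap1 gave -0.07 ± 0.08 (adjusted p = 0.846). Hmox1, heme oxygenase, is named after its values were seen and had the largest mean difference of the list, 2.21 ± 1.77 (adjusted p = 0.765).

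**Figure D5:**
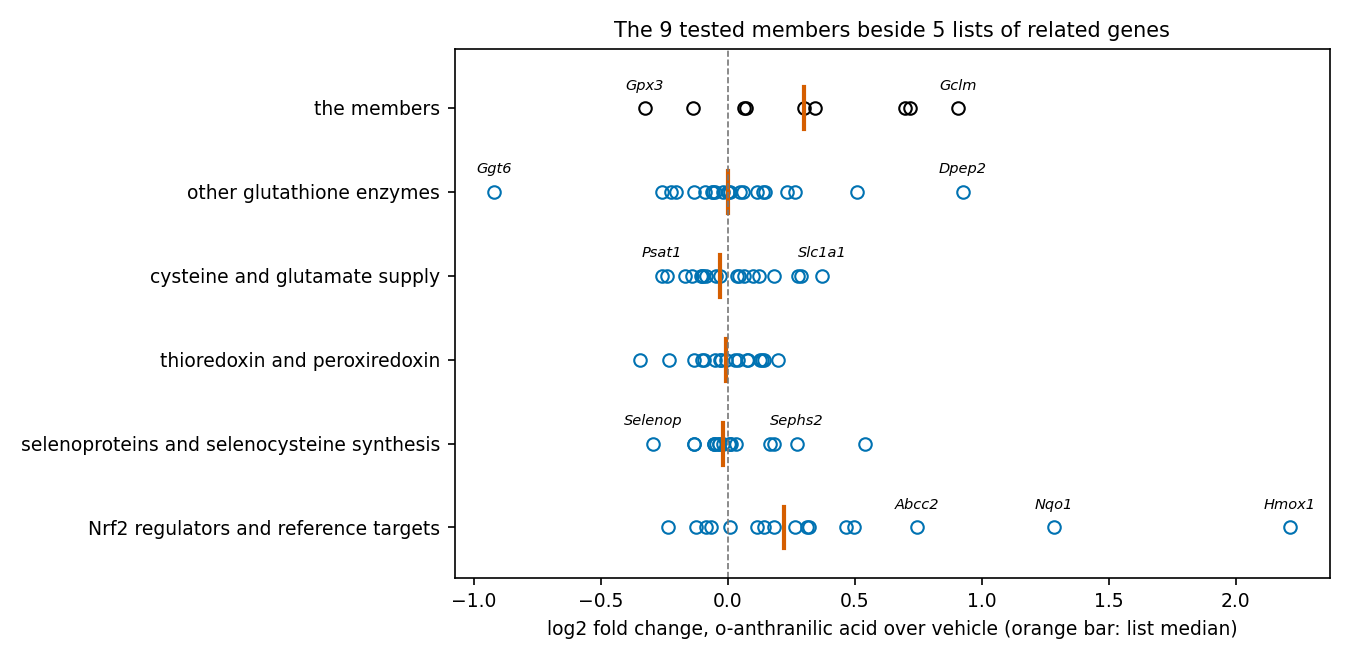
Open circles are log2 fold changes of o-anthranilic acid over vehicle, black for the 9 tested glutathione genes and blue for the 5 lists, and orange bars are medians. The median lies at 0.30 for the 9 genes and 0.22 for the Nrf2 list, and between -0.03 and 0.001 for the other 4 lists.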

How the data were processed

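Cy3-labelled renal cortex RNA of 6 rats was read on 1-colour arrays. Spot intensity on a linear scale, background-subtracted and not normalised between arrays, was deposited as scanner output. The submitters' processing notes name Agilent Feature Extraction 10.7, and the state of the intensity is given per the file headers. A value table deposited by the authors gives, as a ratio, the processed signal over the array's 75th percentile by comparison with the scanner files, linear and not centred. Its column medians were 0.106, 0.105 and 0.104 for o-anthranilic acid and 0.105, 0.107 and 0.104 for vehicle. Each of its columns matched the scanner file of another replicate of the same group, and which numbering holds is unknown. Animals are numbered here by scanner file.

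Of 61657 non-control spots, 84 spike-in and 47 outlier probes were left out, and 61526 were used. Table symbols from RefSeq named 27435 probes, and 34091 had none. No spot was saturated. The log2 of the processed signal minus that of the 75th percentile was used for probes that passed the scanner's test above background on 3 or more of 6 arrays, and a gene's kept probe with the highest mean stood for it. The test of o-anthranilic acid against vehicle was limma (version 3.58.1, under R 4.3.3), with lmFit, eBayes and Benjamini-Hochberg adjusted p-values at a threshold of 0.05. Precision was limited by the number of arrays. Further probes of a gene were read from the same test on all 41551 kept probes. The test was tested on simulated data.

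The 10 genes and all lists were chosen with earlier results of these data known. Named genes were the 10, the 4 smallest p of each list, a set of 7 (Nqo1, Nfe2l2, Keap1, Txnrd1, Slc3a2, Chac1 and Anpep), and the 5 most like the gene with the smallest p. Alternatives changed background correction, scaling, filter, probe rule, variance model and blocks, or left out an array. No mean spot signal was among the columns used here, so normexp (offset 50) took the median spot and background signals.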

Additional observations from a re-analysis of the deposited data

How the results depend on the processing

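Over 20 alternatives none of the 9 tested glutathione genes and none of the 91 related genes passed the threshold. All 180 values of the 9 genes kept their sign. The count of features past it, 0 in the comparison reported, was 5 with normexp, 1 with a filter of all 6 arrays, 2 when probes of a gene were averaged, 5 with a variance trend and robust fit, and 3 with the slide as a block or the slide that holds both groups alone. It ranged between 0 and 3 with each array left out. Same-numbered animals correlated at 0.023, -0.044 and -0.021 in their deviations, and the replicate block gave 0 features. Over every pair of a treated and a vehicle animal the correlations lay between -0.071 and 0.088, so no numbering gave one above 0.088. Which numbering holds is unknown, and whether the animals were paired by design is not settled by these values. Signs turned for Keap1 (0.0023 with normexp), Txnrd1 (-0.13 with the mean of its probes), Chac1 (0.011 with either slide setting, and between -0.15 and 0.011 with arrays left out) and Anpep (between -0.22 and 0.22 with arrays left out, with 0.053 without vehicle replicate 1). Ggt6 and Isl2 could not be fitted with the filter of all 6 arrays. Among dim probes, normexp moved Ggt6 from -0.92 to -0.29, Dpep2 from 0.93 to 0.48 and Isl2 from -0.35 to -0.09. The cause of these shifts was not tested. Slide 2 held treated replicate 2 alone, so leaving it out equals both slide settings. Signal over background limits Slc7a11, which had no kept probe.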
